A study of Mus musculus with 8 samples.

Results

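The genes described here encode the MHC class I molecule and the machinery that supplies it with peptides: the heavy chains H2-K1 and H2-D1, the light chain B2m, the peptide transporter subunits Tap1 and Tap2, the loading factor Tapbp, the immunoproteasome subunits Psmb8, Psmb9 and Psmb10, and the transactivator Nlrc5. They were taken by symbol, and each of the 10 symbols mapped to 1 Ensembl identifier of the count table, 10 of 56953 genes in all. Their RNA was measured in CT26, a mouse colorectal carcinoma line, in 4 groups of 2 libraries. Transplanted tumours received either normal saline or mLJZD, an abbreviation that the labels leave unexpanded. CT26 cultures were kept for 48 hours with 10% serum, either control serum or mLJZD serum. The title of the series names nobiletin, but none of the 8 libraries is labelled with it. The labels name neither the strain of the tumour hosts nor the origin (1 or 2 animals or cultures) of a pair of libraries, so p-values measure the spread between these libraries only, which may be technical.

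Cells display fragments of their own proteins on MHC class I molecules, where CD8+ T cells can read them. The proteasome cuts proteins into peptides, TAP carries the peptides into the endoplasmic reticulum, and tapasin, the product of Tapbp, holds the transporter and the heavy chain together until a peptide fits. Interferon gamma raises most of these genes, exchanges 3 catalytic proteasome subunits (Psmb5, Psmb6 and Psmb7) for Psmb8, Psmb9 and Psmb10, and induces Nlrc5, a nuclear protein that switches on class I promoters together with RFX factors. Loss of this pathway is a well known way in which tumour cells avoid T cells.

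Library totals ran from 16594912 to 29363861 counts. The libraries of a pair differed by more than counting noise, with a mean chi-square per gene of 2.68 in saline tumours, 4.15 in mLJZD tumours, 7.34 in control cultures and 11.6 in mLJZD cultures, where pure counting noise would give 1. Of the genes that mark colon epithelium, Epcam had no count in the cultures and Cdx2 stayed at or under 0.470 CPM in all 8 libraries, whereas Krt20 stood between 141 and 276 CPM. CPM are counts scaled to the library total. CT26 comes from a BALB/c mouse, whose class I alleles differ from those of the C57BL/6J reference and include H2-L, which that reference lacks. Reads of the class I heavy chains may therefore be missed or pooled. Within the reference itself, 14.3% of the 50-base stretches of the H2-D1 transcript and 8.11% of those of H2-K1 also occur in another gene, mostly other class I genes, against 0% for B2m, Psmb8, Psmb9, Psmb10 and Nlrc5 and at most 2.00% for the others. Values of H2-K1 and H2-D1 are uncertain for both reasons, and the effect of the strain difference was not measured.

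Class I promoters carry an NF-kB site and, closer to the start, the X and Y boxes bound by RFX, CREB and NF-Y factors with NLRC5. RefSeq promoter windows of 250 bases before to 50 after the start, in build GRCm38.p6, were found for 8 of the 10 genes. The stretches before the start are printed for both heavy chains, for B2m and for the space shared by Psmb9 and Tap1. Each printed stretch holds a match, which is not so for every gene with a window. Capitals mark matches on either strand to 4 motifs: a pair of GAAA runs with 2 bases between them (interferon regulatory factors), a 10-base NF-kB site (the first capitals in both heavy chain sequences), TGACGC (X2 box) and ATTGG (Y box).
H2-K1 (chr17:34000348-34000597, minus strand): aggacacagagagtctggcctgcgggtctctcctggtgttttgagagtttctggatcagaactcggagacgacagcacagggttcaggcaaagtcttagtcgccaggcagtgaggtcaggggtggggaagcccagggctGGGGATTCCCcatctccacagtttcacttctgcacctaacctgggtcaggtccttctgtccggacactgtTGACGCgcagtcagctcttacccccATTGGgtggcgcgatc
H2-D1 (chr17:35262844-35263093, plus strand): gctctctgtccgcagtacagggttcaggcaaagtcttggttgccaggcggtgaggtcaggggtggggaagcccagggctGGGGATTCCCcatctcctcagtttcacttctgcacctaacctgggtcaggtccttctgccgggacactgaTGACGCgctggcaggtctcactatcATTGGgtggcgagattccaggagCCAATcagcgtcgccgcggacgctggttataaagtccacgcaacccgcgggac
B2m (chr2:122147437-122147686, plus strand): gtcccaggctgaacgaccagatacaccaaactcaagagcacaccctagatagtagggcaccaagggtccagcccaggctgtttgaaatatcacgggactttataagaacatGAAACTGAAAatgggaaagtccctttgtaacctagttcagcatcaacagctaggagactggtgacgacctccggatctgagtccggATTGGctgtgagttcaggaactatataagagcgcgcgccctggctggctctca
Psmb9 to Tap1 (chr17:34187331-34187555, plus strand): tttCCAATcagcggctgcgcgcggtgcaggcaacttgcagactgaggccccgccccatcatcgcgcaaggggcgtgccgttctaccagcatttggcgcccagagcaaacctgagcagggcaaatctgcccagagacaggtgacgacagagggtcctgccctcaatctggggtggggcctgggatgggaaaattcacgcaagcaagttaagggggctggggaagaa

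H2-K1 and H2-D1 held the NF-kB site, TGACGC and ATTGG in the same order, at bases -111, -41 and -16 before the upstream RefSeq start of H2-K1 and at -171, -101 and -76 before that of H2-D1. The NF-kB site occurred in 0.108% of all 32544 windows of 300 bases, TGACGC in 7.44% and ATTGG in 37.4%. B2m had the only exact match to the paired GAAA runs among the 8 genes, GAAACTGAAA at base -139, a motif held by 3.45% of windows. The search took these exact letters only. A gene without a match may still hold a variant site for interferon regulatory factors. Psmb9 and Tap1 start in opposite directions 225 bases apart, and that shared stretch contained CCAAT, the Y box read on the other strand, and no other motif. These matches describe letters only, in the reference strain.

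**Figure D1:**
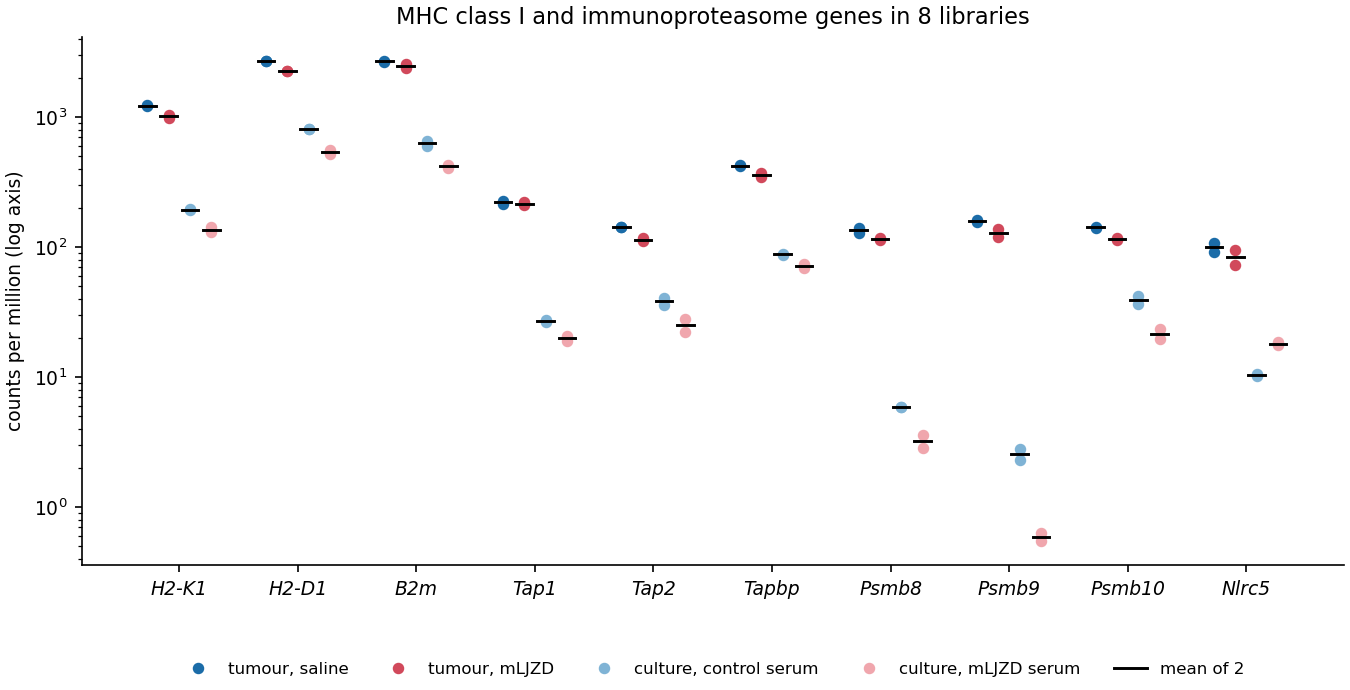
CPM (log axis) of the 10 genes; points are the 2 libraries of each group and bars their mean. The tumour libraries lie above the culture libraries for every gene, from H2-D1 at 2712 CPM in a saline tumour down to Psmb9 at 0.545 CPM in a culture with mLJZD serum.

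The saline tumours held far more RNA of this pathway than the control cultures. All 10 genes were higher in saline tumours (edgeR adjusted p under 0.05), where 44.9% of the 15332 genes tested were higher and 35.7% lower, and the median log2 difference of the 10 was 2.30 against 0.15 over all genes. The 10 genes together took 0.794% ± 0.00291 of the counts in saline tumours (SD, n = 2) and 0.184% ± 0.00342 in control cultures. The immunoproteasome subunits with a start in the MHC region moved most. Psmb9, which replaces Psmb6, stood at 155 and 161 CPM in saline tumours and at 2.82 and 2.30 CPM in control cultures, a log2 difference of 5.78 (SE 0.10, edgeR adjusted p = 9.17e-12). Psmb8, which replaces Psmb5, stood at 129 and 140.4 CPM against 5.89 and 5.86 CPM (log2 4.35, SE 0.09, edgeR adjusted p = 2.73e-11). Psmb10, which replaces Psmb7 and lies outside the MHC, differed less, at 141 and 144 CPM against 41.8 and 36.6 CPM (log2 1.70, SE 0.07). The cultures thus kept Psmb10 at a level where Psmb8 and Psmb9 were scarce. The groups overlapped for none of the 3, though the share of all genes without overlap was not counted.

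Nlrc5 stood at 107 and 92.4 CPM in saline tumours against 10.2 and 10.5 CPM in control cultures (log2 3.10, SE 0.09; 2.06 with the length and GC trend removed), and the transporter subunit Tap1 at 214 and 227 CPM against 27.3 and 26.6 CPM (log2 2.87, SE 0.06; 2.57 with the trend removed). Its partner Tap2, at 143 and 142 CPM against 35.7 and 41.0 CPM, differed by 1.73 (SE 0.07). The heavy chain gene H2-K1 differed more than H2-D1. H2-K1 stood at 1221 and 1232 CPM against 192 and 196 CPM (log2 2.50, SE 0.05), and H2-D1 at 2712 and 2705 CPM against 808 and 809 CPM (log2 1.58, SE 0.05). B2m, the light chain, differed by 1.93 (SE 0.06) and Tapbp by 2.10 (SE 0.05). With a trend in transcript length and GC content removed, as described for the cultures, these 10 differences ran from 1.58 to 5.63 and all 10 remained called, where 32.0% of genes were higher. That removal moved the median of all genes from 0.15 to -0.24.

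Per transcript length the order of the genes also differed between tumour and culture. On the TPM scale, which divides by transcript length (here the principal transcript of each gene), saline tumours had B2m at 6795 ± 6.56 (SD, n = 2), H2-D1 at 2807 ± 15.6, H2-K1 at 1651 ± 4.8 and Tapbp at 318 ± 3.73. Psmb9 followed at 255 ± 6.49, Psmb10 at 236 ± 2.84, Psmb8 at 180 ± 10.5, Tap1 at 163 ± 6.42, Tap2 at 90.1 ± 0.87 and Nlrc5 at 28.7 ± 3.06. In control cultures B2m (1359 ± 47.1), H2-D1 (716 ± 17.8) and H2-K1 (223 ± 8.74) again led. There Tapbp at 56.6 ± 1.76 and Psmb10 at 55.6 ± 3.90 did not differ beyond their spread, Tap2 (20.7 ± 2.52) and Tap1 (17.0 ± 0.13) came next, and Psmb8 (6.72 ± 0.14), Psmb9 (3.51 ± 0.42) and Nlrc5 (2.54 ± 0.13) were the lowest. The place of Psmb9 in tumours depends on the transcript taken as its length: with the longest annotated transcript its level there was 134 ± 3.39, beside Tap1 at 138 ± 5.42.

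Of the related genes, the other class I genes and the interferon gamma genes were mostly higher in saline tumours, and the other lists were mixed. All 13 tested class I genes beyond H2-K1 and H2-D1 were higher in saline tumours, with a median of 3.04 that is the same with Cd1d1 at its bound. H2-T23, which encodes the non-classical molecule Qa-1, stood at 168 and 168 CPM against 3.16 and 3.69 CPM (log2 5.45), and H2-T24 at 53.2 and 52.0 CPM against 0.0427 and 0.225 CPM. Cd1d1, which presents lipids, had 100 counts in saline tumours and none in control cultures, at least 38.5-fold higher against a floor of 3 counts over the group, and H2-Q6 had 165 counts against 1, a ratio of 191 (95% exact interval 33.7 to 7575). Of the interferon gamma list, 11 of 12 genes were higher and Ptpn2, a phosphatase that dampens the signal, was lower. Ifng itself had 47 counts in saline tumours and none in the control cultures, at least 18.1-fold higher, and Irf8 (log2 5.17), Irf1 (1.96), Socs3 (1.81) and Irf2 (1.81) were also higher. By contrast, all 3 constitutive counterparts were lower in tumours, Psmb5 by -0.98, Psmb7 by -0.82 and Psmb6 by -0.72 on the log2 scale. Of 5 proteasome activator and assembly genes, Psme2 (0.92) and Psme1 (0.83), the interferon-induced PA28 subunits, were higher while Pomp (-0.92) and Psme3 (-0.80) were lower. Among 9 genes of peptide trimming and loading 4 were higher and 4 lower, with the trimming peptidase Erap1 (2.50) and the tapasin relative Tapbpl (2.16) the largest rises and Calr (-0.66) the largest fall. Of 11 transcription partners 7 were higher and 3 lower, led by Ciita (7.72, with 4 counts in the control cultures), the class II transactivator, and Rfx5 (1.47). With the trend removed these 2 lists split 3 higher to 6 lower and 3 higher to 4 lower. The interferon gamma list then had 10 higher and 1 lower. Over all 15332 genes tested, 4909 were then higher and 7387 lower. The counts of the activator, trimming and partner lists before removal stand beside 44.9% higher and 35.7% lower over all genes.

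RNA of leukocytes and endothelial cells was present in the tumours and nearly absent from the cultures. The summed level of 5 leukocyte genes, Ptprc among them, was 504 to 508 CPM in saline tumours and 0.631 to 0.640 CPM in control cultures, that of 6 macrophage genes 1229 to 1239 against 8.29 to 10.6 CPM, and that of 6 T cell genes 57.4 to 60.4 against 0.135 to 0.299 CPM. The defining genes Cd3d, Cd3e, Cd3g, Cd8a, C1qa, C1qb, Ncr1 and Prf1 had no count in any culture library. The 5 endothelial genes summed to 196 to 198 CPM in saline tumours and 0.128 to 0.180 CPM in control cultures. Fibroblast genes were not absent in culture: the 5 summed to 2684 to 2709 CPM in saline tumours and 1829 to 1964 CPM in control cultures, mostly from the collagen genes Col1a1 and Col1a2, while Dcn was at or under 0.180 CPM and Lum had no count there. The part of host cells in the class I and immunoproteasome levels of the tumours was not tested. In such bulk material, fewer cells of a type and less RNA per cell cannot be told apart.

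Under mLJZD the tumours lost a small share of this RNA. Of the 10 genes 8 fell and none rose (edgeR adjusted p under 0.05), where 16.0% of the 15417 genes tested fell and 15.4% rose, and the median log2 fold change of the 10 was -0.22 against 0.00092 over all genes. With the trend in transcript length and GC content removed the same 8 fell, where 15.3% of genes did. The falls were all shallow, between 0.822 and 0.940 of the saline level. The share of counts held by the 10 genes was 0.792% and 0.796% in the saline libraries and 0.702% and 0.676% in the mLJZD libraries. That is the largest separation that groups of 2 allow (two-sided exact permutation p = 0.33, the smallest this design can give). Overlap of groups is given per gene below, without the share of all genes that lack it, which was not counted.

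Both heavy chains were lower. H2-K1 went from 1221 and 1232 CPM to 1042 and 991 CPM (log2 fold change -0.24, SE 0.04, edgeR adjusted p = 4.90e-05). H2-D1 went from 2712 and 2705 CPM to 2273 and 2280.2 CPM (log2 -0.22, SE 0.02, edgeR adjusted p = 1.58e-06). Neither gene had overlapping groups, and both calls held in all 12 alternatives. B2m, which pairs with every heavy chain, went from 2678 and 2687 to 2560.2 and 2368 CPM (log2 -0.09, SE 0.03, edgeR adjusted p = 0.0430). Its call ended without saline replicate 1 (0.161) or 2 (0.260), without mLJZD replicate 2 (0.515), with DESeq2 (0.168), with no filter on low counts (0.161) and with all 8 libraries in 1 fit (0.390). With the length and GC trend removed it fell by 0.22 on the log2 scale (edgeR adjusted p = 1.51e-07), beside -0.21 for H2-K1 and -0.18 for H2-D1.

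The transporter subunits parted. Tap2 fell from 143 and 142 CPM to 117 and 111 CPM (log2 -0.28, SE 0.06, edgeR adjusted p = 0.000844). Tap1, by contrast, stood at 214 and 227 CPM with saline and 212 and 221 CPM with mLJZD, overlapping groups at a log2 value of 0.0030 (SE 0.05, edgeR adjusted p = 0.977). The tapasin gene Tapbp fell from 419 and 428 CPM to 372 and 343 CPM (log2 -0.21, SE 0.05, edgeR adjusted p = 0.00349), a call that ended without mLJZD replicate 2 (0.104). A difference between Tap1 and Tap2 in their response was not itself tested.

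The 3 immunoproteasome subunits fell by similar amounts. Psmb10 went from 141 and 144 to 118 and 113 CPM (log2 -0.27, SE 0.06, edgeR adjusted p = 0.00129), Psmb9 from 155 and 161 to 137 and 120.2 CPM (log2 -0.26, SE 0.07, edgeR adjusted p = 0.00536) and Psmb8 from 129 and 140.4 to 118 and 113 CPM (log2 -0.19, SE 0.06, edgeR adjusted p = 0.0230). No groups overlapped. All 3 calls ended without either mLJZD library. Without mLJZD replicate 1 the falls were larger, at -0.31 for Psmb10 (edgeR adjusted p = 0.0579), -0.37 for Psmb9 (0.0535) and -0.24 for Psmb8 (0.162). Without mLJZD replicate 2 they were smaller, at -0.22 (0.0558), -0.15 (0.129) and -0.13 (0.286). The call of Psmb8 also ended without saline replicate 2 (-0.12, 0.384), with DESeq2 (0.0734), with no filter on low counts (0.0712) and with all 8 libraries in 1 fit (0.103). The transactivator gene Nlrc5 stood at 107 and 92.4 CPM with saline and 72.4 and 95.1 CPM with mLJZD. Its groups overlapped and its log2 fold change of -0.22 did not pass (SE 0.09, edgeR adjusted p = 0.0581). It passed without saline replicate 2 (-0.32, 0.00243) and with scaling by library totals (0.0433). Its value moved with the library left out, to -0.05 without mLJZD replicate 1 (0.806), -0.12 without saline replicate 1 (0.303) and -0.41 without mLJZD replicate 2 (0.0979). Over all 10 genes, 5 were called without mLJZD replicate 1 and 3 without mLJZD replicate 2.

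Related genes in the tumours did not move as a block. Their counts before removal stand beside 15.4% of all genes higher and 16.0% lower. Of 13 other class I genes 3 fell and none rose: H2-T24 (log2 -0.38, SE 0.07), H2-Q4 (-0.32, SE 0.05) and H2-M3 (-0.20, SE 0.06), with a list median of -0.20. Of the 12 interferon gamma genes 6 rose and none fell, with a median of 0.16. These were the feedback inhibitors Socs1 (0.68, SE 0.08) and Socs3 (0.50, SE 0.05), the kinases Jak1 (0.45, SE 0.06) and Jak2 (0.22, SE 0.05), the transcription factor Irf1 (0.27, SE 0.05), a known activator of this pathway, and Ptpn2 (0.19, SE 0.07). Ifng (-0.64, edgeR adjusted p = 0.269, 47 counts in the saline and 26 in the mLJZD libraries) did not pass. Among the loading genes the chaperones Calr (0.41, SE 0.04), Hspa5 (0.28, SE 0.03) and Canx (0.15, SE 0.04) rose, while the peptidases Erap1 (-0.32, SE 0.05), Ide (-0.20, SE 0.05) and Tpp2 (-0.16, SE 0.05) fell. Of the constitutive counterparts Psmb7 rose (0.13, SE 0.05), and Psmb5 and Psmb6 stood at 0.01 and 0.02. Pomp, a proteasome assembly factor, rose (0.23, SE 0.06) as the only change among 5 activator and assembly genes, and Creb1 (-0.23, SE 0.05) was the only change among 11 transcription partners. With the length and GC trend removed Ciita (0.34), Irf8 (0.17) and Rela (0.16) were called higher as well. H2-Q1, whose groups overlapped, was then called lower (-0.38), and Psmb7 (0.10), Ptpn2 (0.15) and Tpp2 (-0.13) lost their calls.

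Cell type markers moved in both directions. Their counts of called genes stand beside 15.4% of all genes higher and 16.0% lower. The 6 macrophage genes summed to 1229 to 1239 CPM with saline and 1027 to 1073 CPM with mLJZD. Of these, 2 fell and 1 rose. Mrc1 made up the largest part of that drop, from 296 and 300 to 186 and 183 CPM. Adgre1 stood at 94.1 and 93.4, then 87.5 and 89.4 CPM, and Cd68 at 79.4 and 79.9, then 95.4 and 87.5 CPM. The 6 T cell genes summed to 57.4 to 60.4 and 46.3 to 51.8 CPM, with 1 lower. The 5 leukocyte genes went the other way, from 504 to 508 to between 533 and 562 CPM, with 3 higher. The endothelial genes were at 196 to 198 and 200 to 205 CPM, with none called. Dendritic cell genes were at 24.4 to 26.7 and 29.7 to 31.0 CPM, with 2 of 5 higher and 0 lower. NK cell genes were at 146 to 147 and 140 to 148 CPM, with 1 higher and 1 lower. Fibroblast genes were at 2684 to 2709 and 2918 to 2980 CPM, with 2 of 5 higher and 0 lower. The largest shifts were in other cell types. The 5 skeletal muscle genes, all lower, summed to 2069 to 2095 and 331 to 339 CPM, and the B and plasma cell genes, 3 of 5 tested higher, to 26.5 to 27.7 and 323 to 358 CPM. Neutrophil genes (5.25 to 5.64 against 15.8 to 19.1 CPM) and red cell genes (18.2 to 22.2 against 43.7 to 47.0 CPM) were each higher in 5 of 5 tested. Whether these shifts in cell content take part in the falls was not tested.

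**Figure D2:**
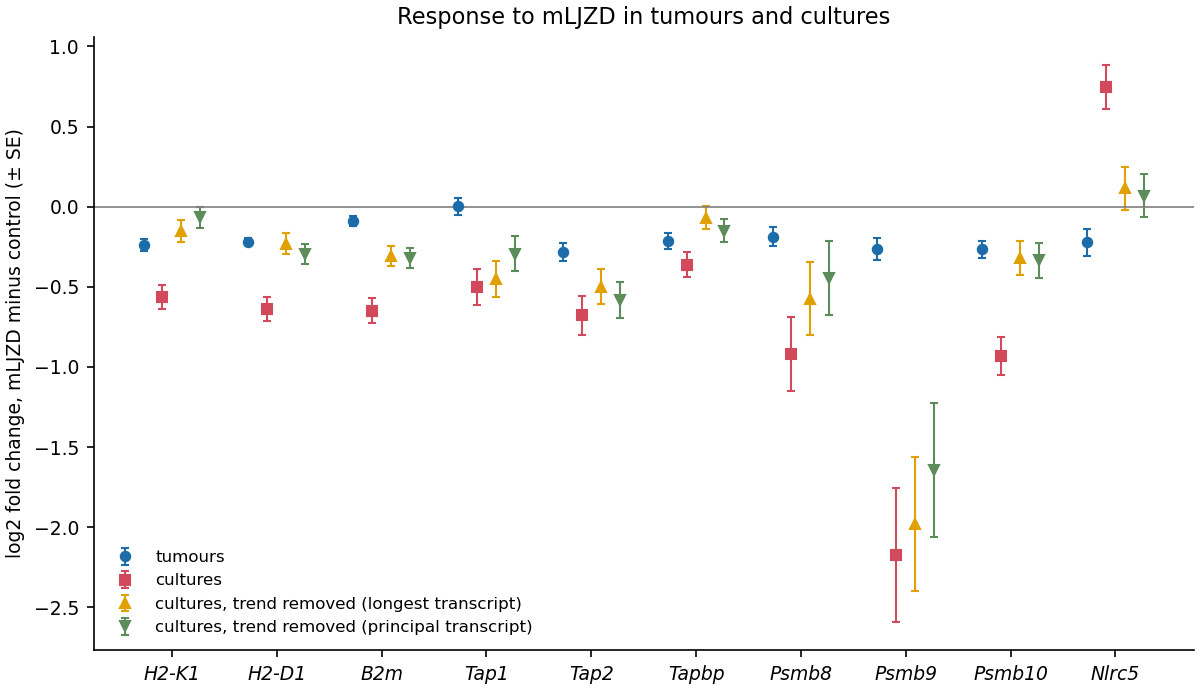
Log2 fold change under mLJZD with its standard error, from edgeR, for each gene in tumours (circles), in cultures (squares) and in cultures after removal of the trend in transcript length and GC content, with lengths of the longest (upward triangles) or principal transcript (downward triangles). Tumour values lie between -0.28 and 0.0030; in cultures Psmb9 is lowest at -2.18 and stays at -1.98 and -1.64 after removal, whereas Nlrc5 goes from 0.75 to 0.12 and 0.07.

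In the cultures given mLJZD serum 9 of the 10 genes fell and Nlrc5 rose (edgeR adjusted p under 0.05), where 26.6% of the 13299 genes tested fell and 28.8% rose. The median log2 fold change of the 10 was -0.64 against -0.01 over all genes. The 10 genes took 0.187% and 0.182% of the counts with control serum and 0.128% and 0.123% with mLJZD serum (two-sided exact permutation p = 0.33, the smallest possible). No gene had overlapping groups, though the share of all genes without overlap was not counted. The direction of all 10 changes held with each library left out in turn. Fold changes in these cultures follow transcript length over all genes, however, so each value is set beside its length. The lengths are those of the principal transcript in the GENCODE annotation (the isoform chosen by the APPRIS database), and those of the longest transcript where it differs.

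**Figure D3:**
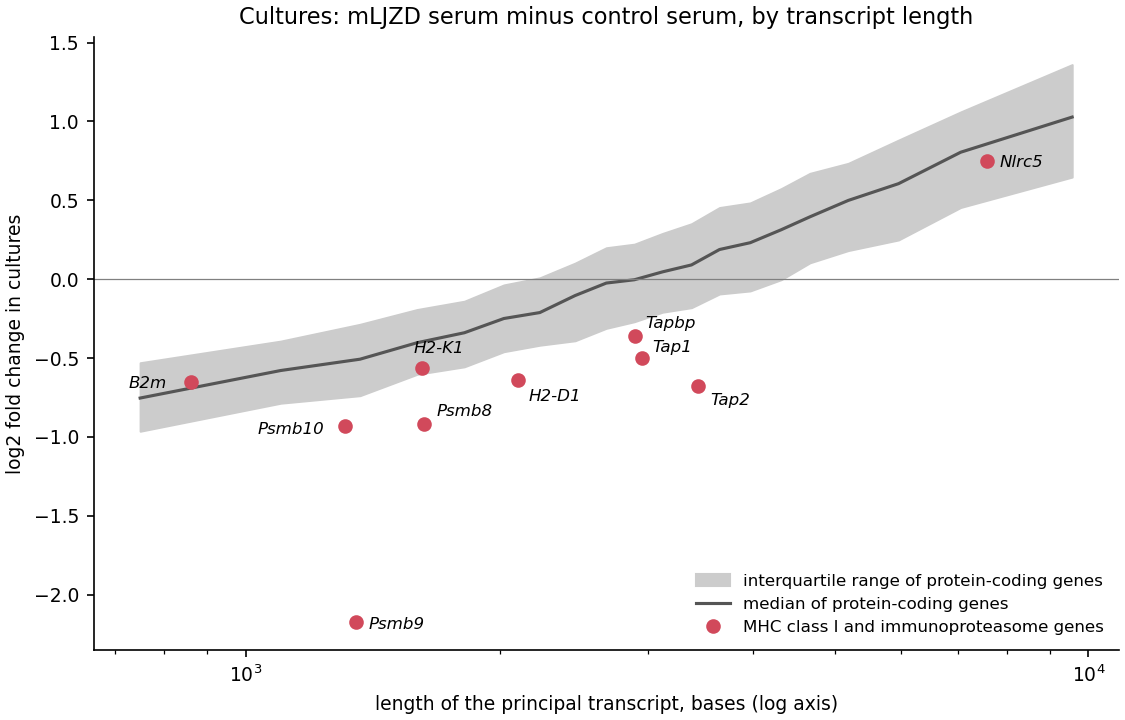
Log2 fold change in cultures against the length of the principal transcript (log axis, bases); the line is the median and the band the interquartile range of protein-coding genes in 20 length classes, points are the 10 genes. B2m, H2-K1 and Nlrc5 lie in the band, Psmb9 at -2.18 far under it, and the other 6 under it.

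Protein-coding genes with principal transcripts of 1000 to 2000 bases had a median log2 fold change of -0.43, those of 2000 to 4000 bases -0.01 and those of 4000 to 8000 bases 0.49. Psmb9, with 1352 bases (2884 in the longest transcript), went from 2.82 and 2.30 CPM to 0.636 and 0.545 CPM, or 66 and 51 counts against 13 and 16. Its log2 fold change was -2.18 (SE 0.42, edgeR adjusted p = 0.000478), and 0.256% of the 2343 genes of its length class lay lower. After removal of the trend it remained called, at -1.98 (edgeR adjusted p = 0.00161) with the longest transcript and -1.64 (0.00639) with the principal one. Psmb9 was thus the member whose fall lay farthest from that of genes of like length.

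The other immunoproteasome genes lay closer to their length class. Psmb10 (1311 bases) went from 41.8 and 36.6 CPM to 23.5 and 19.5 CPM (log2 -0.93, SE 0.12, edgeR adjusted p = 1.43e-05) and kept its call after removal, at -0.32 (0.0294) and -0.34 (0.0261). Psmb8 (1628 bases, 1907 in the longest) went from 5.89 and 5.86 CPM to 2.84 and 3.58 CPM (log2 -0.92, SE 0.23, edgeR adjusted p = 0.00380) and lost its call, at -0.57 (0.0615) and -0.44 (0.156). Of the genes of their length class, 8.24% lay lower than Psmb10 and 8.49% lower than Psmb8.

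The transporter genes fell more than genes of their length. Tap2 (3442 bases) went from 35.7 and 41.0 CPM to 27.9 and 22.2 CPM (log2 -0.68, SE 0.12, edgeR adjusted p = 0.000281) in a class with a median near 0, and stood at -0.50 (0.00224) and -0.58 (0.000732) after removal. Tap1 (2953 bases, 3911 in the longest) went from 27.3 and 26.6 CPM to 20.6 and 19.1 CPM (log2 -0.50, SE 0.11, edgeR adjusted p = 0.00183). After removal it stood at -0.45 (0.00448) with the longest transcript and at -0.29 with the principal one, where it just missed (0.0502). Tapbp (2898 bases), from 87.7 and 88.5 to 73.8 and 69.0 CPM, fell by 0.36 on the log2 scale (SE 0.08, edgeR adjusted p = 0.00131) and lost its call, at -0.07 (0.481) and -0.15 (0.130).

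The heavy and light chains differed in what was left. H2-D1 (2102 bases) went from 808 and 809 CPM to 561 and 519.9 CPM (log2 -0.64, SE 0.08, edgeR adjusted p = 6.04e-06) and remained called at -0.23 (0.0108) and -0.30 (0.00211). H2-K1 (1619 bases, 1874 in the longest) went from 192 and 196 CPM to 143 and 130.2 CPM (log2 -0.56, SE 0.07, edgeR adjusted p = 1.85e-05) but stood at -0.15 (0.0891) and -0.07 (0.489) after removal. B2m (860 bases) went from 655 and 602 CPM to 403 and 431 CPM (log2 -0.65, SE 0.08, edgeR adjusted p = 7.86e-06). It fell slightly less than the median of transcripts under 1000 bases (-0.74), yet stayed called after removal at -0.31 (0.00140) and -0.32 (0.000929), which also takes its GC content of 41.2% into account.

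Nlrc5, with the longest transcript of the 10 (7578 bases), went the opposite way, from 10.2 and 10.5 CPM to 18.7 and 17.5 CPM (log2 0.75, SE 0.14, edgeR adjusted p = 0.000334). Its length class had a median of 0.49, and 72.3% of that class lay lower. After removal Nlrc5 was at 0.12 (0.536) and 0.07 (0.743), with no call. Over the 10 genes, 6 fell and none rose after removal with the longest transcript, where 18.6% of all genes fell and 19.4% rose. With the principal transcript 5 fell, where 16.3% of genes did. The median of the 10 was then -0.31 in both.

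Ratios inside a library do not depend on library scaling. They were taken on counts, neither divided by transcript length nor freed of the length trend of the cultures. The ratio of Psmb9 to its constitutive counterpart Psmb6 was 0.0207 and 0.0188 with control serum and 0.00795 and 0.00733 with mLJZD serum, a difference of -1.37 on the log2 scale (two-sided exact permutation p = 0.33, the smallest possible). The ratio of Psmb10 to Psmb7 went from 0.267 and 0.220 to 0.189 and 0.126, a log2 difference of -0.65, again without overlap. Without mLJZD replicate 2 that difference was -0.36. The ratio of Psmb8 to Psmb5 overlapped between the groups, at 0.0590 and 0.0747 against 0.0478 and 0.0664 (log2 difference -0.24, exact permutation p = 0.67), and the difference was -0.00021 without mLJZD replicate 1. In saline tumours all 3 ratios of counts were above 1. They were 2.56 and 2.72 for Psmb8 to Psmb5, 1.82 and 1.75 for Psmb9 to Psmb6, and 1.38 and 1.41 for Psmb10 to Psmb7. In mLJZD tumours they were lower without overlap, at 2.39 and 2.21, 1.52 and 1.41, and 1.07 and 1.04. The log2 differences were -0.20, -0.29 and -0.40 (exact permutation p = 0.33 each). Per transcript length (mean TPM, principal transcript) Psmb9 stood at 255 and Psmb6 at 242 in saline tumours, against 199 and 230 in mLJZD tumours. Psmb10 and Psmb7 stood at 236 and 192, then 185 and 198. Psmb8 and Psmb5 stood at 180 and 123, then 149 and 117. With the longest transcript Psmb9 and Psmb6 stood at 134 and 225, then 105 and 215. Psmb10 and Psmb7 then stood at 266 and 87.9, then 208 and 91.0, and Psmb8 and Psmb5 at 173 and 139, then 143 and 132. The order within the Psmb9 and Psmb10 pairs thus depends on the transcript taken as length. A ratio of counts above 1 need not mean more transcripts than the counterpart.

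**Figure D4:**
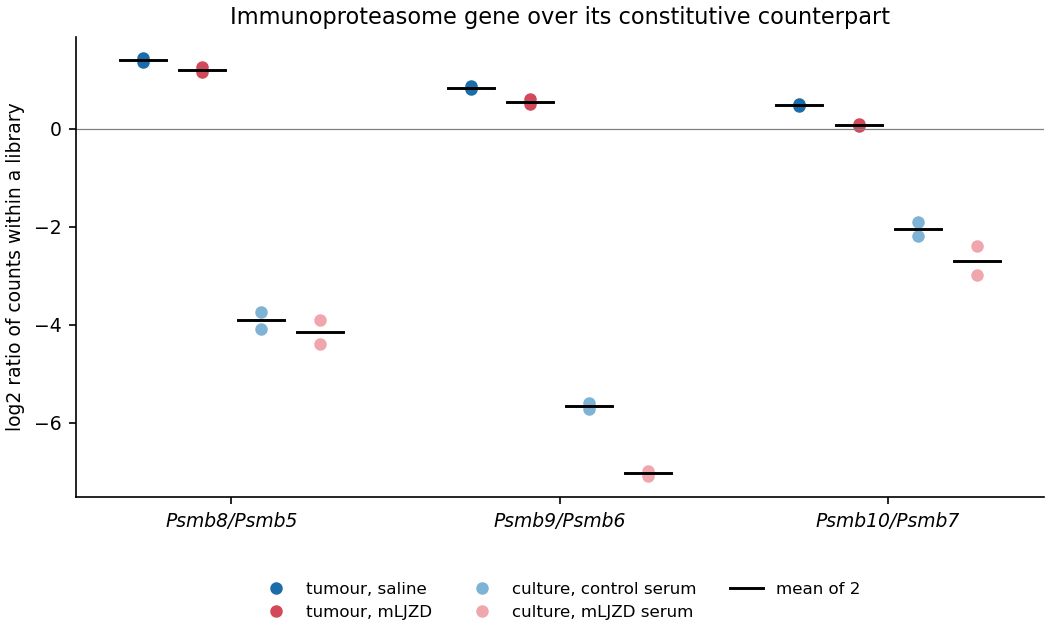
Log2 ratio of counts within a library for each immunoproteasome gene over the constitutive gene it replaces, with 0.5 added to each count. Counts are not divided by transcript length. Points are libraries and bars the mean of 2. All 4 tumour libraries lie above 0 for the 3 pairs, all 4 culture libraries below it, and Psmb9 over Psmb6 in mLJZD cultures is lowest, near -7.03.

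The constitutive counterparts fell in the cultures too, which the ratios set aside: Psmb6 by 0.77 (SE 0.08), Psmb5 by 0.71 (SE 0.11) and Psmb7 by 0.26 (SE 0.09) on the log2 scale, with -0.25, -0.02 and -0.34 after removal with the longest transcript and no call for any of the 3 with the principal one. For the related genes, removal refers to the longest transcript unless stated. Their counts before removal stand beside 28.8% of all genes higher and 26.6% lower. Of the activator and assembly genes Psme2 (-0.70), Psme1 (-0.69) and Pomp (-0.67) fell and Psme4 (0.95) and Psme3 (0.17) rose. After removal Pomp remained lower (-0.83), as did Psme1 (-0.25), while Psme2 was at -0.15 without a call, and Psme4 (0.26) and Psme3 (0.26) remained higher. With the principal transcript Pomp (-0.44) and Psme4 (0.20) were called and the other 3 were not. Of 10 other class I genes tested 3 fell, near the 26.6% over all genes: H2-Q4 (-0.44), H2-T22 (-0.44) and H2-M3 (-0.29), while H2-T24 rose (2.02, SE 0.80), from 1 and 5 counts to 9 and 20. After removal H2-T22 (-0.41) and H2-T24 (2.17) remained called, and H2-Q2 was called higher (1.07, edgeR adjusted p = 0.0320). Of these H2-Q2 alone was called with the principal transcript (1.07, 0.0344). Before removal H2-Q2 stood at 0.36 without a call, with overlapping groups of 67 and 29 counts against 50 and 91. Of 9 trimming and loading genes 7 rose and none fell, with the long-transcript peptidases Lnpep (1.24), Tpp2 (0.80) and Ide (0.69) in front. After removal 5 rose, and 3 with the principal transcript, Calr, Canx and Tpp2. Lnpep at 0.07 and 0.03 was not among them.

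The interferon gamma list in the cultures gave 2 rises, Jak1 (0.75, SE 0.08) and Jak2 (0.61, SE 0.11), and 3 falls, Socs1 (-0.79, SE 0.24), Irf1 (-0.52, SE 0.12) and Ptpn2 (-0.25, SE 0.09), of 11 genes tested, where 28.8% of all genes rose and 26.6% fell. After removal Jak1 (0.35) remained higher and Ptpn2 (-0.29) lower, and Jak2 (0.16), Irf1 (-0.21) and Socs1 (-0.45) had no call. With the principal transcript Jak1 (0.26) remained called and Ptpn2 (-0.09) did not. Ifng had no count in any culture library. Among 10 transcription partners 4 rose, led by Rfx5 (0.71) and Creb1 (0.69), and 3 fell, led by Rfxank (-0.84), an RFX subunit. After removal Rfxank (-0.76) stayed lower and Nfya, a subunit of the Y box factor, stayed higher (0.45). Nfyb, another subunit of that factor, was called lower (-0.32, edgeR adjusted p = 0.00795), though not with the principal transcript (-0.21). Rfx5 (0.45, edgeR adjusted p = 0.162) had no call, and Creb1 turned to -0.26 (edgeR adjusted p = 0.0186). Rfxank (-0.86) and Nfya (0.33) held with the principal transcript, where Creb1 stood at 0.11 without a call and Rfxap, lower before removal (-0.49), was called higher (0.41).

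The responses of tumours and cultures differed for all 10 genes when no trend was removed. In the interaction over 8 libraries 9 genes had a less negative response in tumours and Nlrc5 a more negative one (edgeR adjusted p under 0.05), where 23.8% and 20.5% of 16090 genes were called in these directions. With scaling by library totals 2776 genes were higher and 4219 lower in place of 3834 and 3302, and Tap2 and Tapbp lost their calls. After removal with the longest transcript 3 were called: Psmb9 at 1.75 (SE 0.27, edgeR adjusted p = 0.000110), Tap1 at 0.50 (SE 0.10, edgeR adjusted p = 0.000760) and B2m at 0.17 (SE 0.06, edgeR adjusted p = 0.0482), where 17.3% of genes were called in that direction. With the principal transcript Tap2 joined them at 0.35 (edgeR adjusted p = 0.0371), where 16.0% of genes were called higher. H2-D1, at 0.04 and 0.10 after removal, and Psmb10, at 0.08 and 0.09, then had no called difference between the materials.

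The genes closest to the mean profile of the 10 over the 8 libraries were Naaa, H2-Q4, Pla1a, Gm2a and Sp110, among the 10683 genes compared (mean level 5 CPM or more). Their root mean square differences in row-centred log2 CPM were 0.11, 0.16, 0.18, 0.19 and 0.19. Of the 10 genes themselves Tap1 (0.12) and H2-K1 (0.17) lay nearest to that mean and Psmb9 (1.88) farthest. Naaa, a lysosomal amidase gene, stood at 58.7 CPM in saline tumours, 44.6 in mLJZD tumours, 8.27 in control cultures and 4.91 in mLJZD cultures. H2-Q4, another class I heavy chain gene, stood at 459, 359, 49.2 and 37.5 CPM.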

How the data were processed

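RNA of 4 tumour and 4 culture libraries was analysed. The authors deposited raw counts per gene; per the submitters' processing notes the tools were HISAT2 2.2.1, featureCounts 2.0.3, SAMtools 1.14, FastQC 0.12.1 and Trim Galore, with build GRCm39. Not given in the sources used here: annotation release, strand setting, handling of multimapping reads. Names and transcript lengths came by identifier from GENCODE M21, which named 52029 of 56953 identifiers; no coordinates were taken from it. Promoter sequences are from RefSeq (GRCm38.p6).

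The test was that of edgeR 4.0.16 (R 4.3.3; quasi-likelihood F test, two-sided, TMM, filterByExpr, Benjamini-Hochberg over all genes tested, adjusted p under 0.05), with 4 libraries per comparison and 8 for the interaction. Each SE was taken from the ratio of the log2 value to the root of its F. The length and GC trend was fitted per library with mgcv 1.9.3 as smooth terms and entered as an offset. Both steps were first run on simulated counts. Ratios used counts plus 0.5, and intervals and the floor of 3 counts cover counting error only. Overlap of groups was noted for the listed genes only, so no share over all genes stands beside it. Alternatives were DESeq2 1.42.0, other scalings, no filter, all libraries in 1 fit, a replicate block, leaving out each library, and trend removal. Trend removal with the principal transcript was added after the data were seen.

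The genes and lists were chosen with earlier results of these data known. Besides the 10 genes, the rule names up to 4 of the largest called changes per list and comparison and the 5 genes nearest to the mean profile; Ifng, Irf2, Ptpn2, Canx, Ide, Pomp, H2-Q2 and further genes named for their calls or their absence were added after their values were seen. 1 gene of the interferon gamma list is counted in its list but not reported here. Of the listed symbols, Nrdc and H2-L matched no identifier.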

Additional observations from a re-analysis of the deposited data

Results flagged for a closer look

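The effect of mLJZD in tumours minus that in cultures passed the interaction test (edgeR, adjusted over 16090 genes) for each of the 10 genes. On the log2 scale the difference was 2.01 for Psmb9, 0.80 for Psmb8, 0.75 for Psmb10, 0.64 for B2m, 0.59 for Tap1, 0.51 for H2-D1, 0.48 for Tap2, 0.41 for H2-K1, 0.23 for Tapbp and -0.88 for Nlrc5. A positive value means a smaller fall in tumours than in cultures. With the length and GC trend removed, Psmb9, Tap1 and B2m remained called with either transcript length, and the other 7 differences lay between -0.28 and 0.40 with the longest transcript.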

How the results depend on the processing

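In tumours 4835 genes were called, 2868 with DESeq2, and 1087 to 3536 with 1 library left out; 1087 remained without mLJZD replicate 1 and 1974 without mLJZD replicate 2. Of the 10 genes, 8 were called, and 3 to 7 with 1 library left out. The value of Tap1, near 0, changed sign with library totals only (-0.0291), upper-quartile scaling (-0.0014), no filter on low counts (-0.0081), and without saline replicate 1 (-0.0456) or mLJZD replicate 2 (-0.0062), never with a call; its values with 1 library left out ran from -0.0456 to 0.0525. In cultures 7365 genes were called, 5054 with the trend removed and 4417 with the principal transcript; of the 10 genes 10, 6 and 5 were called. Leaving out a culture library changed no call among them. In the interaction 10 of the 10 genes were called, 3 and 4 after the 2 removals, when the values of H2-K1 (-0.0597 and -0.15) and Tapbp (-0.10 and -0.0173) changed sign; 8 to 10 were called with 1 library left out. Tapbp lost that call in most of these fits, and Tap2 without tumour mLJZD replicate 1 (0.0659) and with library totals only (0.0764). The tumour to culture calls of the controls held in all 12 alternatives. Scaling moved the median of all genes by over 0.1 in 3 places: to -0.12 in cultures with upper-quartile scaling, to 0.31 in the controls and to -0.09 in the interaction with library totals only. Libraries of the same replicate number shared little deviation from their group means (correlation -0.08 in tumours and 0.02 in cultures). This cannot tell whether they were paired by design. With a replicate block 4461 genes and 8 of the 10 were called in tumours, and 7343 and 10 in cultures. In the controls 12125 and 10 were called with it, and in the interaction 7024 and 9. The ratios and shares kept their direction with another pseudocount or denominator and with each library left out. At 13 and 16 counts in mLJZD cultures, Psmb9 is the gene most limited by depth. The causes of these changes were not tested.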
